A study of Mus musculus with 8 samples.

Results

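The genes described here encode enzymes of the steps that turn lanosterol into cholesterol. They are 9 rows of the deposited table of 28073 genes, chosen by name: Cyp51, Tm7sf2, Lbr, Msmo1, Nsdhl, Hsd17b7, Ebp, Sc5d and Dhcr7. Expression was measured by RNA-seq in livers of C57BL/6 mice, an inbred strain, aged 21 to 22 weeks. Of the mice, 4 had eaten a high-fat diet and 4 a low-fat control diet; no other treatment is named, and the composition of the diets and the time on them were not analysed here. The series addresses how a high-fat diet alters hepatic nuclear receptors and the genes they control.

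Lanosterol is the first sterol of the cholesterol pathway, and the enzymes that follow it trim its methyl groups and move or remove its double bonds in the membrane of the endoplasmic reticulum. When sterols are scarce there, the transcription factor SREBP2 is released from the membrane and raises the genes of the pathway; when sterols are plentiful it is held back. The liver is a main site of this synthesis, and several of the intermediates are signals in their own right.

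Transcripts of all 9 enzymes were lower on the high-fat diet, and in each case the highest of the 4 high-fat livers lay below the lowest of the 4 control livers. The falls ran from 1.501-fold for the sterol isomerase gene Ebp to 4.43-fold for Cyp51, the lanosterol demethylase. By edgeR's quasi-likelihood test 9 of 9 were called lower, with Benjamini-Hochberg adjusted p-values over all genes between 0.000598 and 0.00672, against 5.86% of the 14088 genes tested that were called lower and 3.75% called higher. High-fat values below control values in every pair of libraries occurred in 9 of 9, against 9.97% of all tested genes; the reverse held for 0 of the 9 and for 7.28% of all tested genes. The median log2 fold change (high-fat over control, as throughout) was -1.42 over the 9 genes and 0.0069 over all tested genes.

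Libraries held 26643020 to 30013106 counts, so that 1 count stood for 0.034 to 0.039 CPM, the count scaled to a common library size with TMM factors. The 9 genes together held 20463 to 24017 counts in high-fat libraries and 39619 to 57788 in control libraries. Hepatocyte markers were abundant in every library. Their summed level was 75550 to 80604 CPM on the high-fat diet and 87738 to 123049 CPM on the control diet. Of 9 such markers 3 were called lower (Serpina1a, Ahsg and Cps1), against 5.86% of all tested genes. The median log2 fold change of these markers was -0.44. Their part in the falls described here was not tested; in bulk tissue, fewer cells of a type and less RNA per cell cannot be told apart. Over 6 lists of Kupffer cell, endothelial, stellate, cholangiocyte, lymphocyte and erythroid markers, 0 of 38 tested genes were called by edgeR. Of these, 7 had an unadjusted edgeR p under 0.05, against 3503 of all 14088 tested genes. DESeq2 called 3 higher and 0 lower, against 860 higher and 1193 lower over all genes.

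Of 6 adipocyte markers only Cfd had enough counts to be tested, and it was higher on the high-fat diet (4.74 ± 0.70; edgeR adjusted p = 0.00525). The 6 markers summed to 19.0 to 74.6 CPM on the high-fat diet and 0.148 to 5.63 CPM on the control diet, nearly all of it Cfd on the high-fat diet. The fat cell hormone gene Adipoq had 2, 2, 3 and 10 counts in high-fat replicates 1 to 4, against 42, 0, 0 and 32 counts in control replicates 1 to 4. Without control replicates 1 and 4, the control libraries with Adipoq, all 9 genes were still called lower, and their median log2 fold change was -1.58.

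**Figure D1:**
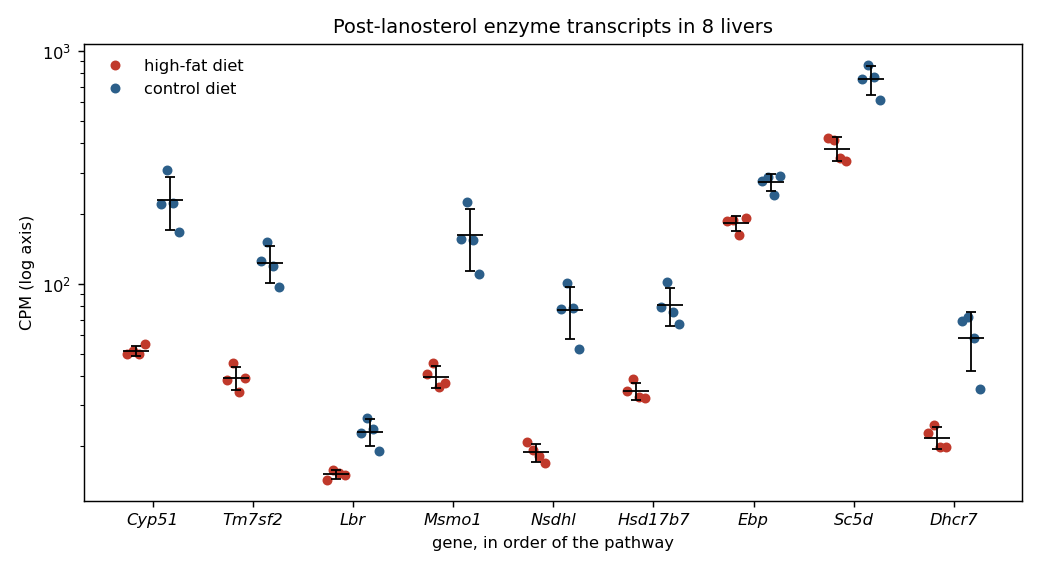
Expression in CPM (log axis) of the 9 post-lanosterol genes, in pathway order. Points are livers, 4 per diet, and bars give mean ± SD; for each gene the high-fat points lie below all control points, with the widest gap for Cyp51 and the narrowest for Lbr.

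Cyp51 encodes the cytochrome P450 that removes a methyl group from the ring junction of lanosterol, the first step of the sequence. The gene (ENSMUSG00000001467.5) lies on chromosome 5, 4081145 to 4104746, minus strand, in mm10, the build of all coordinates here. It had 50.03, 51.5, 49.7 and 55.1 CPM in high-fat livers, against 221, 306, 221 and 166 CPM in control livers. The high-fat livers were nearly alike, while control replicate 2 was high and control replicate 4 low. The log2 fold change of -2.15 ± 0.16 (SE; edgeR adjusted p = 0.000598) was the largest fall of the 9 and stood at place 32 from the bottom among all tested genes.

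The double bond left by the demethylase is reduced by either of 2 related enzymes, encoded by Tm7sf2 and Lbr. Tm7sf2 (chromosome 19, 6062821 to 6068373, minus strand) had 38.5, 45.5, 34.4 and 39.2 CPM in high-fat livers, against 125, 151, 119 and 96.7 CPM in control livers (-1.64 ± 0.14, edgeR adjusted p = 0.000814). Lbr (chromosome 1, 181815335 to 181843046, minus strand) encodes the lamin B receptor, which sits in the inner nuclear membrane, binds lamins and chromatin, and carries the reductase in its membrane part. It had 14.4, 15.9, 15.4 and 15.04 CPM in high-fat livers, against 22.9, 26.6, 23.8 and 19.2 CPM in control livers (-0.61 ± 0.097, edgeR adjusted p = 0.00672). Groups did not overlap for either gene, but the lowest Lbr control value lay only 1.21 times above the highest high-fat value, the smallest such gap among the 9 genes, against 2.13 times for Tm7sf2.

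The share of Tm7sf2 in this pair was lower in every high-fat liver than in any control liver. Per kilobase of exon, Tm7sf2 made up 74.3%, 75.5%, 70.7% and 73.8% of the summed Tm7sf2 and Lbr level in high-fat livers, against 85.5%, 86.0%, 84.4% and 84.5% in control livers. The mean share was 73.6% ± 2.07 on the high-fat diet and 85.1% ± 0.799 on the control diet (SD, n = 4 each; exact two-sided permutation test, p = 0.0286, the smallest that 70 splits allow). In all 4 high-fat livers Tm7sf2 remained the more abundant of the pair. The share was chosen with earlier results known, and its p-value was not adjusted together with those of the count ratios below. Exons of Tm7sf2 also overlap those of Vps51 on the same strand, and how reads there were assigned is unknown.

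Other proteins of the nuclear lamina and inner nuclear membrane, the second site of LBR, give a comparison for Lbr. Of 20 such genes 2 were called lower and 0 higher, against 5.86% and 3.75% of all tested genes. Their median log2 fold change was -0.13, with 15 negative values, against 6892 negative values among all 14088 tested genes. The 2 called lower were Sun1, which links the nucleus to the cytoskeleton (-0.32 ± 0.082, edgeR adjusted p = 0.0392), and Cbx1, which encodes a heterochromatin protein that binds LBR (-0.21 ± 0.056, edgeR adjusted p = 0.0471). With library totals in place of TMM factors 0 were called lower and 1 higher, and with any 1 of the 8 libraries left out 0 or 1 were called lower (edgeR adjusted p up to 0.103 for Sun1 and 0.121 for Cbx1). The lamin genes Lmna (0.15 ± 0.11), Lmnb1 (-0.18 ± 0.13) and Lmnb2 (0.14 ± 0.13) were not called (edgeR adjusted p from 0.439 to 0.563).

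Removal of the paired methyl groups at the other end of the ring system takes a repeated cycle of Msmo1, Nsdhl and Hsd17b7. Msmo1 (chromosome 8, 64718139 to 64733792, minus strand), the iron-containing oxidase that begins the cycle, had 40.8, 45.6, 36.0 and 37.4 CPM in high-fat livers, against 155, 224, 155 and 110 CPM in control livers (-2.01 ± 0.19, edgeR adjusted p = 0.00100). Nsdhl (chromosome X, 72918557 to 72958514, plus strand), the dehydrogenase that releases the oxidised carbon, had 21.0, 19.3, 18.2 and 16.997 CPM in high-fat livers, against 77.7, 100.4, 78.4 and 52.4 CPM in control livers (-2.03 ± 0.17, edgeR adjusted p = 0.000814). By the fitted fold change Msmo1 stood at 24.8% and Nsdhl at 24.4% of the control level, and neither gene's groups overlapped.

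Hsd17b7 (chromosome 1, 169949535 to 169969241, minus strand), the ketone reductase that ends the cycle, fell less. It had 34.8, 38.8, 32.5 and 32.3 CPM in high-fat livers, against 79.3, 102, 75.9 and 66.8 CPM in control livers (-1.23 ± 0.12, edgeR adjusted p = 0.00131). In control livers Hsd17b7 and Nsdhl had nearly equal counts, with a log2 ratio of Nsdhl to Hsd17b7 between -0.35 and 0.047, whereas in high-fat livers the ratio lay between -1.01 and -0.73.

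The scaffold gene of this cycle, listed as 0610007P14Rik and named Erg28 in RefSeq, whose yeast counterpart holds the demethylation enzymes together, was lower too (-0.86 ± 0.12, edgeR adjusted p = 0.00429). It had a mean of 23.7 ± 2.72 CPM on the high-fat diet and 43.0 ± 6.14 CPM on the control diet (SD, n = 4 each). Among 5 partners of the post-lanosterol enzymes Tmem97, a sterol-binding membrane protein, was the other called lower (-0.54 ± 0.081, edgeR adjusted p = 0.00573), and 0 were called higher. Over all tested genes 5.86% were called lower and 3.75% higher. Pgrmc1, which encodes a heme protein that binds CYP51, had a log2 fold change of 0.32 ± 0.11 and was not called (edgeR adjusted p = 0.0962).

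The last steps move and set the ring double bonds. Ebp (chromosome X, 8185329 to 8193512, minus strand) encodes the isomerase that shifts the double bond, and it had 185, 188, 161 and 192 CPM in high-fat livers, against 275, 286, 239 and 290.0 CPM in control livers (-0.59 ± 0.084, edgeR adjusted p = 0.00483). Sc5d (chromosome 9, 42254177 to 42264300, minus strand), the desaturase that introduces a further double bond, had 424, 415, 347 and 336 CPM in high-fat livers, against 756, 870, 773 and 611 CPM in control livers (-0.99 ± 0.12, edgeR adjusted p = 0.00303). Dhcr7 (chromosome 7, 143823145 to 143848410, plus strand), whose enzyme reduces the immediate precursor shared by cholesterol and vitamin D, had 22.8, 24.6, 20.0 and 19.9 CPM in high-fat livers, against 69.1, 71.8, 58.5 and 35.2 CPM in control livers (-1.42 ± 0.199, edgeR adjusted p = 0.00458). Control replicate 4 was the low value of Sc5d and of Dhcr7, but it was the highest control value of Ebp. Ebpl, which encodes a relative of EBP, was not called (-0.19 ± 0.11, edgeR adjusted p = 0.313).

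**Figure D2:**
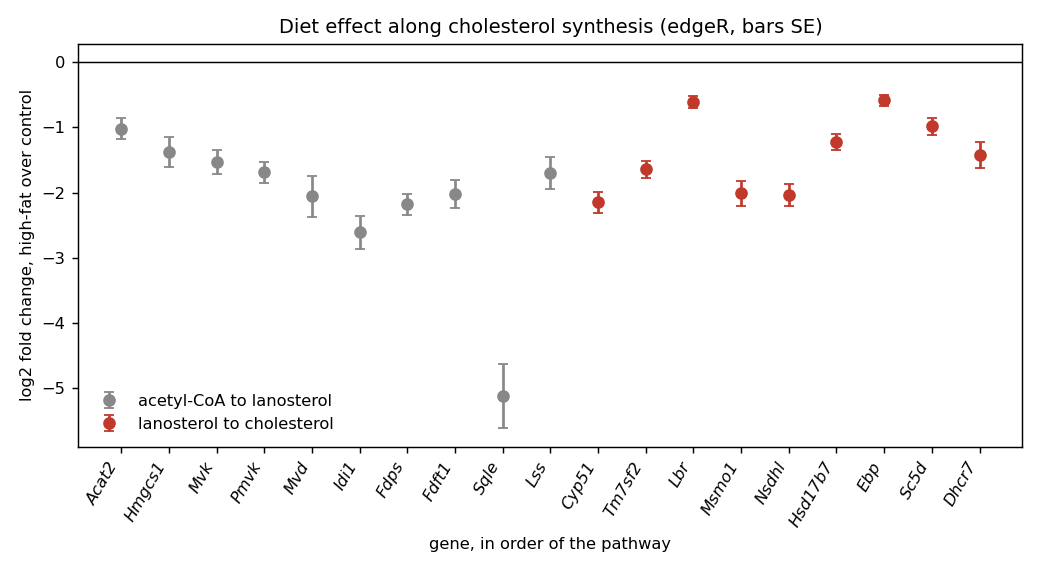
Log2 fold change (high-fat over control, bars SE from edgeR) of genes of cholesterol synthesis, in pathway order from Acat2 to Dhcr7. All points are below 0, and after lanosterol the values run from -2.15 (Cyp51) to -0.59 (Ebp).

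Because the 9 genes moved together, the sequence around their start sites was searched for letters bound by factors known to act on this pathway. These were TCACNCCAC for SREBP, CCAAT for NF-Y and GGGCGG for Sp1, on both strands. The search used RefSeq promoter windows of GRCm38.p6, each of 300 bases, which lie mostly before the start site and run past it. All 9 genes had a window, and Dhcr7 had 3. CCAAT occurred in 9 of the 11 windows and at least 1 window of each gene, against 37.4% of 32851 windows of all genes, and GGGCGG in 10 of the 11, against 35.7%. For Dhcr7, CCAAT was in 1 of the 3 windows, which begins at 143829964, inside the deposited gene. The windows of all genes were not limited to genes expressed in liver. TCACNCCAC was found in 0 of the 11 windows, against 1.24% of all windows, which says only that these exact letters are not there. The E-box CACGTG occurred in Hsd17b7, Sc5d and 1 window of Dhcr7, against 7.15% of all windows.

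The 200 bases before the start site are given for the 3 genes with the largest falls and the 2 with the smallest, 5′ to 3′ on the strand of the gene, with CCAAT (or its complement ATTGG) in capitals. They are chr5:4104698-4104897 minus strand (Cyp51), chrX:72918321-72918520 plus strand (Nsdhl), chr8:64733579-64733778 minus strand (Msmo1), chr1:181842402-181842601 minus strand (Lbr) and chrX:8193513-8193712 minus strand (Ebp).
Cyp51: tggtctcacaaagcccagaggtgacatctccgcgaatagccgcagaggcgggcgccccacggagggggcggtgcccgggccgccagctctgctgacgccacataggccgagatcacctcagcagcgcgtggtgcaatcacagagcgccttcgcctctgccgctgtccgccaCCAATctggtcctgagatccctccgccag
Nsdhl: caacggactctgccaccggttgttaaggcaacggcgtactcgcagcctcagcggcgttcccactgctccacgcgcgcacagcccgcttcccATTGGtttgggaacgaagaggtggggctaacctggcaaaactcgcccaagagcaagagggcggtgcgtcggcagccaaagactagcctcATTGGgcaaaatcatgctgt
Msmo1: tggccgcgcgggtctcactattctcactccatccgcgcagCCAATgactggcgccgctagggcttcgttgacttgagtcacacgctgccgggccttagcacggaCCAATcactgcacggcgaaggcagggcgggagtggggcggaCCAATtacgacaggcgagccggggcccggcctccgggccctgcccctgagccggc
Lbr: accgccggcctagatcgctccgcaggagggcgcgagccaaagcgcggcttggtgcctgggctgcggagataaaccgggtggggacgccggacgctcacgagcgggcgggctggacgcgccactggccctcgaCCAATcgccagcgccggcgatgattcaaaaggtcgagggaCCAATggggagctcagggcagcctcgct
Ebp: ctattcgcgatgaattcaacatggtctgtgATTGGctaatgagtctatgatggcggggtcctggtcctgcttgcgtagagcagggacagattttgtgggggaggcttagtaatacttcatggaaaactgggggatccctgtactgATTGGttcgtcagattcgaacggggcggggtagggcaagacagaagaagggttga
Cyp51 had 1 CCAAT, beginning 29 bases before the start, whereas Msmo1 had 3, at 160, 96 and 55 bases. Nsdhl had 2, at 109 and 20 bases, Lbr 2, at 68 and 28 bases, and Ebp 2, at 170 and 55 bases. Tm7sf2 and Sc5d had 1 each in the same stretch, at 47 and 24 bases, Hsd17b7 had 3, at 165, 73 and 12 bases, and Dhcr7 had 2 before 1 of its 3 start sites, at 85 and 49 bases. The stretches of Lbr, Msmo1 and Tm7sf2, and the Dhcr7 stretch with CCAAT, lie wholly inside the deposited gene span. Those of Cyp51 and Hsd17b7 lie partly inside it.

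Folds differed along the sequence, with Cyp51, Msmo1 and Nsdhl near -2 and Ebp, Lbr and Sc5d between -0.99 and -0.59. Count ratios of neighbouring steps within each library, which need no scaling between libraries, were compared for 7 pairs chosen after the values were seen. The log2 ratio of Cyp51 to Tm7sf2 averaged 0.39 ± 0.16 on the high-fat diet and 0.88 ± 0.11 on the control diet (SD, n = 4 each; difference -0.48; exact two-sided permutation p = 0.0286). Ratios of Tm7sf2 to Msmo1 (difference 0.34), Nsdhl to Hsd17b7 (-0.79) and Hsd17b7 to Ebp (-0.63) likewise separated the diets completely, each with exact p = 0.0286. After Benjamini-Hochberg adjustment over the 7 pairs these exact p-values became 0.05, which is not under the threshold. For Ebp to Sc5d and Sc5d to Dhcr7 (difference 0.40 each, exact p = 0.114) the diets overlapped, through control replicate 4; without it the differences were 0.52 and 0.53 (exact p = 0.0286 each). Without any 1 high-fat library the exact p was 0.0571 for Tm7sf2 to Msmo1 (differences from 0.31 to 0.36) and for Hsd17b7 to Ebp (differences from -0.67 to -0.57). The log2 ratio of Msmo1 to Nsdhl was 1.08 ± 0.13 on the high-fat diet and 1.05 ± 0.083 on the control diet (exact p = 0.800).

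The absolute levels spanned a wide range. Per kilobase of exon, Sc5d was highest, at 166 ± 19.9 CPM per kilobase on the high-fat diet and 330 ± 46.8 on the control diet (SD, n = 4 each). Ebp followed with 78.6 ± 5.91 on the high-fat diet and 118 ± 9.91 on the control diet, and then Cyp51 with 11.7 ± 0.557 on the high-fat diet and 51.8 ± 13.1 CPM per kilobase on the control diet. In high-fat livers Tm7sf2 came next at 8.95 ± 1.04, then Hsd17b7, Nsdhl and Msmo1 at 6.78, 6.61 and 6.50 with overlapping libraries, then Dhcr7 at 3.76 and Lbr at 3.19 CPM per kilobase. In control livers Tm7sf2, Nsdhl and Msmo1 overlapped at 27.9, 27.1 and 26.2, Hsd17b7 had 15.9 and overlapped with both Nsdhl and Msmo1, and Dhcr7 at 10.1 and Lbr at 4.86 CPM per kilobase closed the order. The place of Sc5d depends on the length used. Divided by the length of the longer GENCODE M21 model, the same counts gave 78.1 ± 9.32 on the high-fat diet and 155 ± 21.9 on the control diet. On the high-fat diet that value is close to Ebp. The deposited span is shorter than this model, so reads from the rest of it may be missing and these values may be too low.

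**Figure D3:**
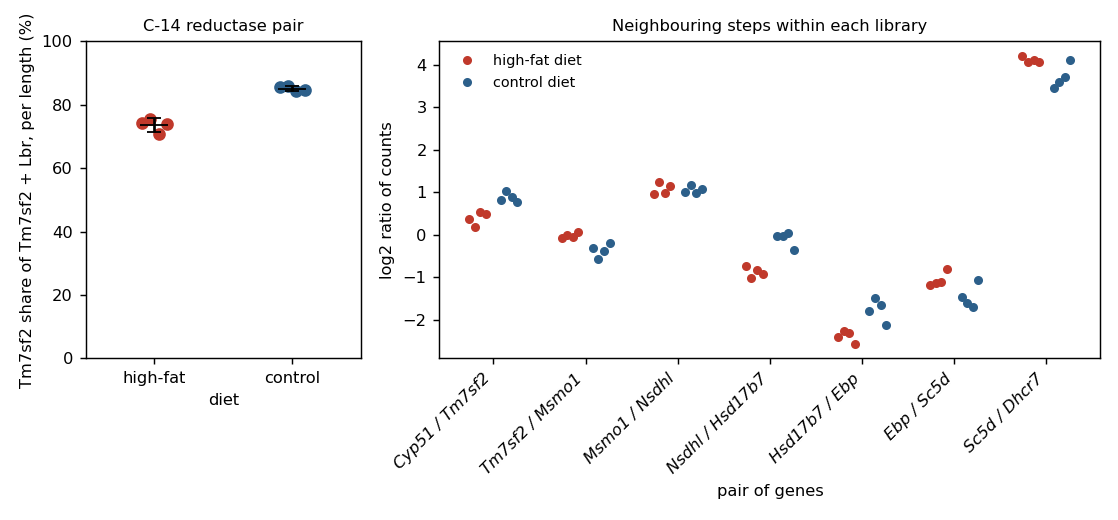
Left, Tm7sf2 share (%) of the summed Tm7sf2 and Lbr level per length, by liver, with mean ± SD (n = 4 each): 73.6% on the high-fat diet and 85.1% on the control diet. Right, log2 ratio of the counts of neighbouring steps in each library; the diets do not overlap for 4 of the 7 pairs, and Msmo1 to Nsdhl lies near 1 on both diets.

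The control livers shared an order over most of the genes. Control replicate 2 had the highest and control replicate 4 the lowest control value for 8 of the 9 genes, Ebp being the exception, and the same order held in 9 of 10 tested genes upstream of lanosterol, against 9.63% of all tested genes. The ratio of the highest to the lowest control value was 2.04 for Msmo1 and Dhcr7 and 1.21 for Ebp. High-fat livers shared no such order: the highest value was in replicate 2 for 5 genes, replicate 1 for 2 and replicate 4 for 2, and the lowest in replicate 3 for 4, replicate 4 for 4 and replicate 1 for 1. On the high-fat diet the spread was narrower: the SD of log2 CPM was smaller than on the control diet for 9 of 9 genes. The same held for 10 of 10 tested genes upstream of lanosterol and for 63.6% of all tested genes. For Cyp51 the coefficient of variation was 4.77% on the high-fat diet and 25.4% on the control diet. For Ebp it was nearly equal, at 7.52% on the high-fat diet and 8.40% on the control diet. Because the control livers shared an order, the genes are not independent observations of the spread.

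**Figure D4:**
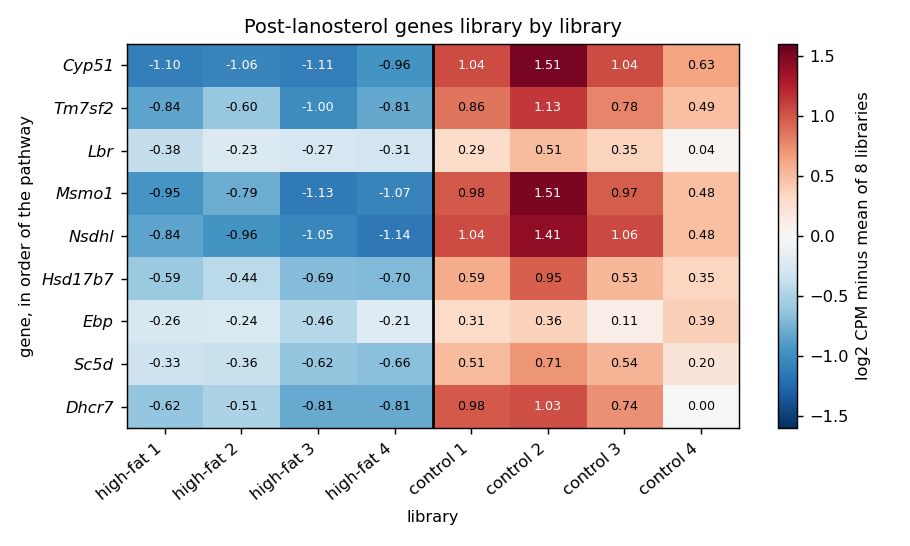
Log2 CPM of each gene minus its mean over the 8 libraries (colour and printed value), high-fat livers left of the line. Values are negative in every high-fat liver and above 0 in every control liver, with control 2 highest in 8 rows and Dhcr7 in control 4 closest to 0.

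The upstream part of the pathway fell as well. All 10 tested genes from Acat2 to Lss, out of 11 listed, were called lower, against 5.86% of all tested genes. Their median log2 fold change was -1.86, and Idi2 had too few counts. The smallest p-values were those of Fdps (-2.18 ± 0.16, edgeR adjusted p = 0.000598), Pmvk (-1.69 ± 0.16, 0.00100) and Idi1 (-2.61 ± 0.25, 0.00100), which make the isoprenoid units. Sqle, squalene epoxidase, had -5.12 ± 0.50 (edgeR adjusted p = 0.00106), and Lss, which makes lanosterol, -1.696 ± 0.24 (0.00475). Cyp51, the next gene in the sequence, fell by 2.15 on the same scale.

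Of 6 genes listed as electron donors 1 was called higher and 2 lower, against 3.75% and 5.86% of all tested genes. Their median log2 fold change was -0.0025. CYP51 draws electrons from the reductase encoded by Por, while MSMO1 and SC5D draw them from cytochrome b5. Por was higher, with 133, 223, 232 and 148 CPM in high-fat livers, against 55.4, 65.2, 67.9 and 96.2 CPM in control livers (1.37 ± 0.22, edgeR adjusted p = 0.00672). Cyb5b, the mitochondrial outer membrane form of cytochrome b5, was lower (-0.34 ± 0.065, edgeR adjusted p = 0.0132), and so was Cyb5r3, the cytochrome b5 reductase (-0.55 ± 0.13, edgeR adjusted p = 0.0266). Cyb5r3 was not called without high-fat replicate 1, 2 or 4 or control replicate 1 or 2 (edgeR adjusted p from 0.0589 to 0.0742) or with library totals, each of which left 1 donor called lower. Cyb5a, the microsomal cytochrome b5, was not called (0.24 ± 0.10, edgeR adjusted p = 0.190).

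Among 10 genes of sterol sensing, 3 were called lower and 1 higher, with a median of -0.044, against 5.86% and 3.75% of all tested genes. Insig1, whose product retains the SREBP escort protein in the endoplasmic reticulum and is itself sterol regulated, was lower (-1.18 ± 0.199, edgeR adjusted p = 0.00830), as were the escort gene Scap (-0.90 ± 0.16, 0.0103) and Srebf2, which encodes SREBP2 (-0.68 ± 0.17, 0.0350). The call of Srebf2 was lost without high-fat replicate 1, 2, 3 or 4 or control replicate 1 or 2 (edgeR adjusted p up to 0.0968; log2 fold change from -0.76 to -0.53) and with library totals. The ubiquitin ligase gene Rnf145 was higher (0.57 ± 0.15, edgeR adjusted p = 0.0385), a call lost without any 1 high-fat library or control replicate 1 or 4, which left 0 called higher. A further list, drawn up as SREBP2 targets, held 7 tested genes. Most were of sterol uptake and transfer, but it also held Lpin1, which encodes a phosphatidate phosphatase, and Nsg1. Of these 7, 2 were called lower and 0 higher, and 5 were not called (median -0.22). The shares over all tested genes were 5.86% lower and 3.75% higher. The 2 called lower were Stard4, a cytosolic sterol carrier (-0.895 ± 0.077, edgeR adjusted p = 0.000814), and Tmem97, already named.

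Genes whose library profile lay closest to the 9 were ranked by the mean absolute difference, over 8 libraries, between a gene's centred log2 CPM and the median profile of the 9. Among the nearest were the long noncoding RNA 1810008I18Rik (0.112 log2 units), Pmvk (0.120), Lonrf3 (0.120) and Mvk (0.132). Pmvk and Mvk encode kinases of the mevalonate pathway. Among the 9 genes themselves the same measure ran from 0.062 for Dhcr7 to 0.427 for Ebp. The profile of 1810008I18Rik was 53.5, 62.5, 43.0 and 44.0 CPM in high-fat livers, against 147, 141, 114 and 114 CPM in control livers (-1.35 ± 0.14, edgeR adjusted p = 0.00133).

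**Figure D5:**
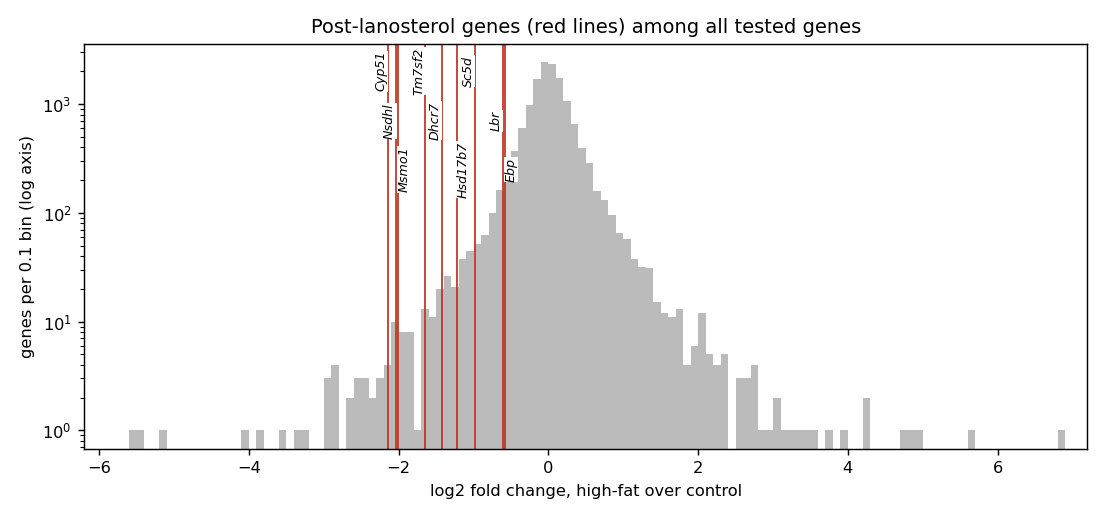
Log2 fold change (high-fat over control) of the 14088 tested genes, in bins on a log count axis, with red lines at the 9 post-lanosterol genes. All 9 lines lie left of 0, between -2.15 and -0.59, while the median of all genes is 0.0069.

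Reads that could belong to a neighbouring gene touch 3 of the 9. The exons of Cyp51 overlap those of Akap9 on the opposite strand by 166 bases, those of Tm7sf2 overlap Vps51 on the same strand by 532 bases, and those of Lbr overlap Dnah14 on the opposite strand by 440 bases. Akap9 (0.17 ± 0.064, edgeR adjusted p = 0.133) and Vps51 (-0.19 ± 0.096, edgeR adjusted p = 0.248) were not called, and Dnah14 had at most 1 count in any library. Some 50-base words in the transcripts of the 9 genes also occur in transcripts of other genes, as they stand or as their reverse complement. Their share was 9.87% for Tm7sf2, 8.41% for Lbr and 2.77% for Cyp51, against 1.37% or less for the other 6. For Lbr and Cyp51 most were shared with the opposite-strand genes Dnah14 (8.0%) and Akap9 (2.63%).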

How the data were processed

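Raw counts per gene, as the authors deposited them, were used for 8 liver RNA-seq libraries, 4 per diet; the columns carry sample titles. Per the labels' protocols, total RNA from frozen liver was made into stranded total RNA libraries; the submitters' processing notes name TopHat2 2.1.1, Trimmomatic 0.32, bcl2fastq 2.20.0.422 and the mm10 build. How reads were counted, with which strand setting and on which annotation, is not given in the sources used here, so the assignment of reads in overlapping genes is unknown.

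In edgeR 4.0.16 (R 4.3.3), filterByExpr kept 14088 of 28073 rows, TMM factors scaled the libraries, and the diets were compared by the quasi-likelihood test without covariates on the whole table, with Benjamini-Hochberg adjustment over all tested genes and calls under 0.05. An SE is the size of the log2 fold change over the root of its F statistic. Profiles used log2 CPM with a prior count of 3. Exon lengths are unions of GENCODE M21 exons within the deposited gene span; M21 coordinates equalled the deposited ones for 8 of the 9 genes, Sc5d being the exception. Single ratios were compared by exact permutation over samples. Alternatives used DESeq2 1.42.0, limma 3.58.1 (voom), other scalings, filters and thresholds, and omission of libraries. The fit was also run on simulated counts with known changes, whose outcome is not given here. Those counts were drawn independently for each gene and library, so the run cannot speak to an order shared by libraries.

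The design text calls the samples biological replicates; the labels name no batch or pairing, and replicate numbers follow sample order. No pair of libraries of a diet agreed within sampling noise (mean chi-square per gene 18.2 to 119.6, over genes with 50 or more counts in the pair). The 9 genes, the gene lists and the tests were chosen with earlier results of these data known. Named in the text are all 9 genes, Sqle, Lss, Por, Srebf2 and Insig1 whatever their result, up to 3 called genes per other list by smallest p, overlapping genes and genes from among the 5 with the most similar profile; other uncalled genes are examples chosen after their values were seen. Some items are not reported here and were left out of the lists.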

Additional observations from a re-analysis of the deposited data

How the results depend on the processing

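All 9 post-lanosterol genes were called lower in each of 18 alternatives, 162 fits of single genes in all, including 8 with 1 library left out; log2 fold changes of Cyp51 ran from -2.36 to -1.98 and of Ebp from -0.64 to -0.49. The Tm7sf2 share kept its direction with any 1 library left out; dropping the length correction rescales all libraries alike and cannot change it. No paired analysis was possible because the replicate numbers only follow sample order and the labels name no pairing. Over all genes 825 were lower and 529 higher (60.9% lower); library totals alone gave 534 lower and 1111 higher (32.5% lower) and moved the median log2 fold change to 0.10, while the median of the 9 genes was then -1.33. DESeq2 called 1193 lower and 860 higher (58.1% lower). A threshold of 0.01 left 221 lower and 148 higher, and leaving out the 2 controls with Adipoq 461 lower and 282 higher. With 1 library left out, 432 to 843 genes were lower and 293 to 636 higher.

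Among the other lists, the nuclear lamina had 0 lower and 1 higher with upper-quartile factors, with library totals and without a low-count filter, 1 higher with DESeq2, 1 lower with voom, 0 lower at 0.01 or without the 2 controls, and 0 to 1 lower and 0 to 1 higher with 1 library left out. Electron donors had 1 lower with library totals or without the 2 controls, 0 lower at 0.01, and 1 to 2 lower and 1 to 2 higher with 1 library left out. Partner genes had 1 higher with library totals and with DESeq2, and 0 to 1 with 1 library left out. Sterol sensing genes had 1 lower and 0 higher at 0.01, 0 higher without the 2 controls, and 0 to 1 higher with 1 library left out. Sterol-consuming genes had 1 lower with DESeq2, without a filter and without the 2 controls, 0 to 1 with 1 library left out, and 1 higher at 0.01. Ebpl was lower without the 2 controls (1 call) and 0 to 1 times with 1 library left out. With 1 library left out, the difference in log2 ratio of Msmo1 to Nsdhl ran from -0.024 (without high-fat replicate 2) to 0.071. The cause was not tested.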

Other observations

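Of 13 tested genes that oxidise, esterify or export cholesterol 2 were called higher and 0 lower by edgeR, with a median log2 fold change of 0.10. Over all tested genes 3.75% were called higher and 5.86% lower. The 2 called higher were the partners of the canalicular sterol exporter. On the log2 scale Abcg5 was higher by 1.49 ± 0.21 (edgeR adjusted p = 0.00483) and Abcg8 by 1.22 ± 0.22 (edgeR adjusted p = 0.0102). Cyp7a1, the first enzyme of bile acid synthesis, averaged 128 ± 25.6 CPM on the high-fat diet and 44.97 ± 41.9 CPM on the control diet (SD, n = 4 each) and was not called (1.51 ± 0.55, edgeR adjusted p = 0.123). Cyp7b1, an oxysterol hydroxylase, averaged 183 ± 59.5 CPM on the high-fat diet and 390 ± 165 CPM on the control diet and was not called either (-1.09 ± 0.36, edgeR adjusted p = 0.0908). The cholesterol ester synthase gene Soat2 averaged 22.4 ± 1.33 CPM on the high-fat diet and 21.4 ± 3.38 CPM on the control diet (0.065 ± 0.11, edgeR adjusted p = 0.755).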
